A study of Mus musculus with 6 samples.

Results

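Integrin subunits and the proteins that tie them to the actin cytoskeleton at focal adhesions were followed as 36 genes, chosen by symbol: 19 integrin subunits and 17 intracellular adhesion proteins. All 36 were among the 23366 genes listed, and 35 had a mean normalized count of at least 10 and were tested, among 12820 genes in all. The cells were SC4, Schwann cells of a mouse line that was taken from a schwannoma without Nf2, so both groups lack the gene for merlin, and results rest on this single line. One group received a control siRNA and the other a pool of siRNAs against YAP (YAP Smartpool), a transcriptional co-activator encoded by Yap1, and poly(A) RNA was sequenced 48 hours after transfection. Each group held 3 libraries, numbered 1 to 3. Nothing in the labels says that these came from separate cultures, so the tests measure only the spread between libraries, which may be technical.

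Integrins are receptors made of an alpha and a beta chain that bind the extracellular matrix outside the cell. Inside, talin and kindlin bind the beta tail and switch the receptor on, vinculin and filamin hold it to actin, and focal adhesion kinase, paxillin and p130Cas pass signals on from the cluster. The alpha chain largely sets the ligand: fibronectin and other proteins with an RGD motif, collagen, or laminin. Schwann cells depend on laminin receptors to contact their basal lamina.

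After YAP siRNA, the fibronectin receptor chain gene Itga5, the laminin receptor chain genes Itga3, Itga6 and Itga7 and the gene of the scaffold paxillin fell. The genes of tensin-3, alpha-parvin, PINCH and the paxillin relative Hic-5 rose. "Rose" and "fell" are used where limma, fitted to log2(value + 1) with the replicate number as a block, gave a Benjamini-Hochberg adjusted p under 0.05; "blocked" and "unblocked" below name the fits with and without that block. In the blocked fit with all libraries 6 of 35 members rose (Itga11, Itga4, Lims1, Parva, Tgfb1i1 and Tns3) and 9 fell (Itga5, Itga8, Itga10, Itga3, Itga6, Itga7, Itgb7, Pxn and Tns4). These are 17.1% and 25.7% of the members, against 8.32% higher and 8.96% lower over all genes tested. The members were chosen with earlier results of these data known, so this is no neutral comparison. Most members are abundant, and abundant genes are called more often: of genes with a mean of at least 1000, 22.6% were called in either direction, beside 9 of the 24 members above that mean, or 37.5%. The median log2 change was 0.087 over the members and 0.009 over all genes tested.

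Without the block, limma called 0 members in either direction, as it called 0% of all genes. At an unadjusted p under 0.05 there were 11 members (12.2% of all genes), and edgeR called 0 members (0% of all genes). DESeq2 called 2 higher (Tgfb1i1 and Tns3) and 5 lower (Itga5, Itga7, Itga8, Itgb7 and Pxn), against 2.63% and 3.18% of the genes it gave an adjusted p. With the block but no mean-variance trend in limma, 0 rose and 0 fell, with adjusted p between 0.0788 and 0.197 for the 15 genes. The share of all genes called in that fit is not given here, so whether this loss is particular to the members cannot be told. Without replicate 2 of both groups 1 member rose and 5 fell (Tns3, and Itga5, Itga7, Itga8, Itgb7 and Tns4), against 0.959% and 1.38% of all genes. Without replicate 3 of both groups 3 rose and 8 fell, against 4.2% and 4.6%. Every call below is one of the blocked fit with a trend and all libraries. The direction was the same in all 3 same-numbered pairs for 14 of the 15 genes, Lims1 being the exception. The blocked fit picked the 15 genes by these same pair differences, so this count is no separate check of the calls. Of all 35 tested members, called or not, 29 had the same direction in all 3 pairs. The share over all genes is not given here, so this count is no result about the members.

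The libraries held 18025132 to 60078880 reads in genes, and a single read corresponded to 0.461 to 1.52 normalized counts. The siRNA target Yap1 had 4749.6, 5732 and 4751 normalized counts in control replicates 1, 2 and 3, and 936, 571 and 475 after YAP siRNA, a control mean 7.68 times that after YAP siRNA. The Schwann markers Ncam1, Ngfr and Pmp22 were present, while the lineage factor gene Sox10 (0 to 15.6 normalized counts) and S100b (4.55 to 18.7) were low. Of 12 Schwann markers 9 had a mean of at least 10, and they summed to 19833 to 25152 in the controls and 19575 to 31927 after YAP siRNA, with 2 genes higher (Pmp22 and Erbb3) and 1 lower (Ngfr). Of 10 fibroblast markers 9 had such a mean. The collagens Col1a1, Col1a2 and Col3a1 carried most of their sum. Pdgfra, Pdgfrb and Postn were also abundant, with control means of 7996, 10181 and 10014, while Dcn, Thy1 and Dpt were far lower and Lum did not exceed 4.15. The summed fibroblast list lay between 292230 and 593345 in the controls and between 246619 and 469344 after YAP siRNA. In it 3 genes were higher (Pdgfrb, Postn and Dpt) and 3 lower (Col1a1, Col3a1 and Dcn). Epithelial markers summed to 314 to 538 in the controls and 129 to 155 after YAP siRNA, with Cldn7 at 0. Of them 0 genes were higher and 2 lower, Krt18 and Krt8, which carried most of the control sum. Their means were 298 and 78.1 in the controls and 56.4 and 19.8 after YAP siRNA. Ocln had means of 32.6 and 47.0 and Epcam of 19.3 and 7.81, with neither called. Endothelial markers summed to 263 to 456 and 285 to 508, with 0 called and Emcn and Cldn5 at 0. The part of these shifts in the members' values was not tested. In RNA from whole cultures, fewer cells of a type and less RNA per cell cannot be told apart.

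Promoter sequences were available for 26 members, and 4 are printed because they belong to the fall (Itga5) and the rise (Tns3) of smallest p and to the only changed members whose promoter holds one of the motifs searched (Itga10 and Itga3). They are RefSeq sequences of build GRCm38.p6 that span each annotated start, 5′ to 3′ on the gene's strand. Capitals mark the motif letters: CATTCC or GGAATG for TEAD, the DNA-binding partner of YAP, and TGANTCA for AP-1. Itga5 lies at chr15:103366742-103367041, minus strand, Tns3 at chr11:8664486-8664785, minus strand, Itga10 at chr3:96645334-96645633, plus strand, and the Itga3 start shown, 1 of 2 listed, at chr11:95069149-95069448, minus strand.
Itga5: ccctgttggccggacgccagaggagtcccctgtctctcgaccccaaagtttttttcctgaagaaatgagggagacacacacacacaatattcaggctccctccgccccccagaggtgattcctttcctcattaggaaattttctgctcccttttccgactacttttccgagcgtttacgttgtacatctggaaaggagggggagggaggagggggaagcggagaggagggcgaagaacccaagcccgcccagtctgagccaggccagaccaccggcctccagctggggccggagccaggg
Tns3: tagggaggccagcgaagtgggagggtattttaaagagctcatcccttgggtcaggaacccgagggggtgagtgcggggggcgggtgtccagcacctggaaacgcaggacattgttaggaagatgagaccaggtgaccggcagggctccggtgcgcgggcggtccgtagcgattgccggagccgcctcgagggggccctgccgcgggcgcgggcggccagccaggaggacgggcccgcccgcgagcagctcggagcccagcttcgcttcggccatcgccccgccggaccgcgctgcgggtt
Itga10: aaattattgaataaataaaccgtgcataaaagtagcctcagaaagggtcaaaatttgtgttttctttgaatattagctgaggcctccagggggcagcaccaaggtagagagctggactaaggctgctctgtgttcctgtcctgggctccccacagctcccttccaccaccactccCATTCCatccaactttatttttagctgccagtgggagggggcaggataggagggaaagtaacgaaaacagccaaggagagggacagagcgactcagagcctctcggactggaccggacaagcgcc
Itga3: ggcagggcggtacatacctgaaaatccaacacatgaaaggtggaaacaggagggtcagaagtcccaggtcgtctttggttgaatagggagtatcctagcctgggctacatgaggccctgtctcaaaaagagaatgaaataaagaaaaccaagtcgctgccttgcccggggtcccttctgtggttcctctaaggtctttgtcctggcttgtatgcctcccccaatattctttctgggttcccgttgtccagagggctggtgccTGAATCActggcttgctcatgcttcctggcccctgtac

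Both strands were searched, and none of the printed promoters holds more than 1 of the motifs; Vcl holds the TEAD letters and the CArG box, apart from each other. The TEAD letters were in 4 of 32 member promoters (12.5%), those of Flna, Itga10, Itgb1 and Vcl, against 14.7% of all 32851 promoters of that length. The AP-1 letters were in 3 (9.38%), those of Itga3, Itga9 and Zyx, against 7.81%. The CArG box bound by SRF was in 3 (9.38%), those of Fermt2, Itgb6 and Vcl, against 1.63%, and none of those 3 genes was among the 15 called. Parva, Tgfb1i1, Pxn, Tns4, Itga6 and Itga7 had no promoter entry.

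The most abundant subunit transcripts in control cells were Itgb1 among beta chains and Itga3, Itgav and Itga5 among alpha chains. Levels between genes are compared as normalized counts per kb of annotated exon. Itgb1, the chain shared by most alpha subunits, stood at 8728 ± 183 per kb (SD, n = 3), with only Flna among the members near it, at 8867 ± 1089. Itga3, a laminin receptor chain, stood at 5990.2 ± 1994, Itgb5 at 5185 ± 1746, Itgav at 3362 ± 631 and Itga5 at 2867 ± 243. The ranges of the control libraries overlap for each neighbouring pair from Itga3 down to Tns3 at 2399 ± 138, while within each control library Itga3 was above Itgb5 and Itgb5 above Itgav. Tns3 was above Fermt2, at 1794 ± 284, in every control library.

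The middle of the order held Itga7 at 1749 ± 479, Itgb7 at 999 ± 65.9 and Itga6 at 861 ± 22.7 per kb (SD, n = 3). The ranges of Itgb7 and Itga6 do not overlap, but those of most other neighbours do. Subunits for collagen were scarce: Itga10 had 155 ± 93.4, Itga11 127 ± 98.2, Itga2 47.2 ± 21.9 and Itga1 31.4 ± 18.2 per kb. Itgb6, an epithelial RGD receptor chain, was lowest of the tested members at 4.17 ± 1.41 per kb.

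**Figure D1:**
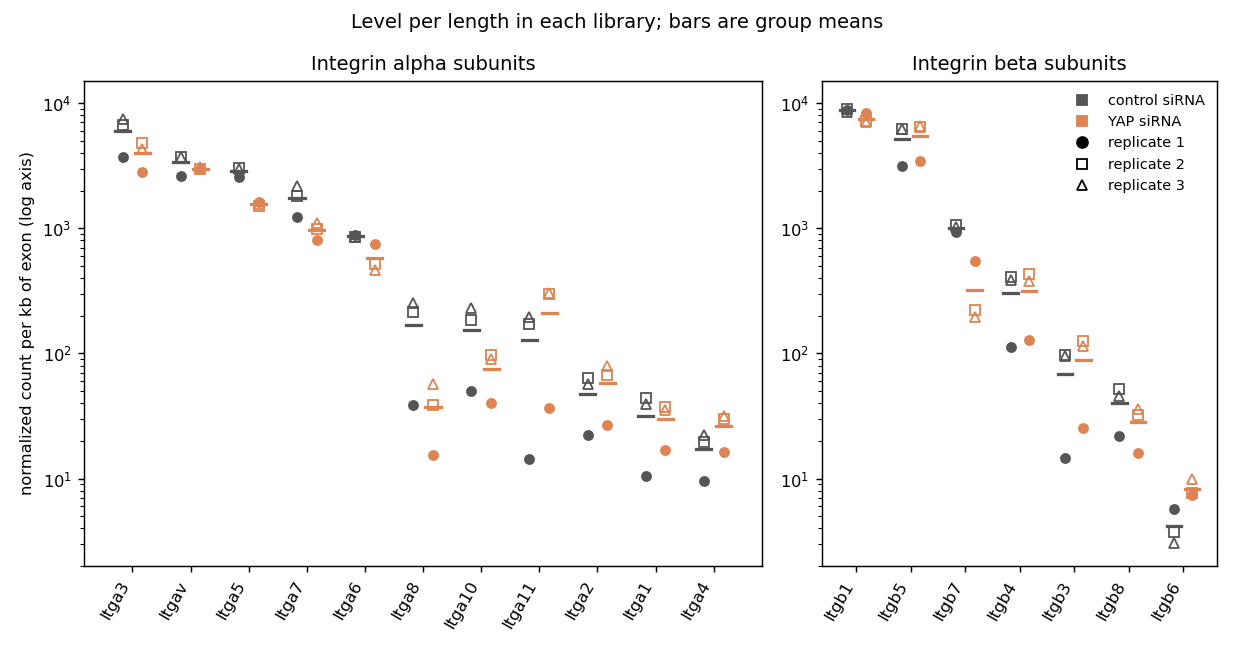
Normalized count per kb of exon (log axis) for 11 integrin alpha and 7 beta subunits in each library, ordered by the control mean; grey marks control siRNA, orange YAP siRNA, the marker shape the replicate number, and bars the mean of 3 libraries. Itga3, Itgav and Itga5 lead the alpha chains and Itgb1 and Itgb5 the beta chains, and replicate 1 (filled) lies lowest of its group for many of the scarce subunits.

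As a share of all alpha-chain transcript per kb, Itga3 held 38.3% ± 4.42 without and 37.3% ± 5.91 with YAP siRNA (SD, n = 3). Itgav held 22.1% ± 1.43 and 28.8% ± 3.41, without overlap between groups, and Itga5 19.2% ± 3.42 and 15.0% ± 2.38, with overlap. The summed alpha level was 15375 ± 3646 per kb in the controls and 10509 ± 1259 after YAP siRNA, with overlapping ranges. For beta chains Itgb1 held 57.7% ± 8.32 and 55.2% ± 9.94, and Itgb7 6.56% ± 0.499 and 2.44% ± 1.72, the latter without overlap between groups.

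Among receptors for RGD ligands, Itga5 and Itga8 fell. Itga5, which pairs with Itgb1 as the main fibronectin receptor, had 11335, 13269.6 and 13082 normalized counts in control replicates 1, 2 and 3 and 7058, 6639 and 6825 after YAP siRNA. Every YAP siRNA library was below every control library, and the spread after YAP siRNA was small. The log2 change was −0.87 (95% interval −1.08 to −0.66, limma adjusted p = 0.00171 blocked and 0.123 unblocked), and pair 1 had the smallest difference, −0.68.

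Itga8 encodes the chain that binds nephronectin and fibronectin, and is found in mesenchymal cells. It had 223, 1250.3 and 1470.3 normalized counts in the controls and 89.0, 224 and 332 after YAP siRNA. It was lower in each pair, but the groups overlap because control replicate 1 was as low as YAP siRNA replicate 2. The log2 change was −1.98 (95% interval −2.48 to −1.48, limma adjusted p = 0.00186 blocked and 0.415 unblocked).

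The other RGD receptor chains did not pass. Itgav, the alpha chain of several vitronectin and TGF-beta activating receptors, had 18578, 26357 and 26214 normalized counts in the controls and 20871, 20972 and 21624 after YAP siRNA, higher in pair 1 and lower in pairs 2 and 3 (limma adjusted p = 0.384 blocked). Without replicate 1 of both groups its log2 change was −0.30 (limma adjusted p = 4.4e-04). Its partner Itgb5 had 10745, 20883 and 21118 and 11629, 21751 and 22442, with a log2 change of 0.087 (95% interval −0.095 to 0.27). The Itgb5 transcript shares 8.70% of its 31-mers (runs of 31 bases) with the annotated gene Gm38317. Within each number its values were close, whereas replicate 1 was about 2-fold below replicates 2 and 3 in both groups.

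Itgb3, the other main vitronectin receptor beta chain, had 85.0, 565 and 548 normalized counts in the controls and 145, 727 and 665 after YAP siRNA, higher in all 3 pairs (log2 change 0.47, limma adjusted p = 0.0812 blocked). Itgb8, whose receptor activates latent TGF-beta, was lower in all 3 pairs, at 184, 438 and 386 and 135, 269 and 304 (log2 change −0.50, limma adjusted p = 0.0753 blocked). Itgb6 had 34.9, 22.6 and 18.4 and 44.5, 46.4 and 60.3, and its groups do not overlap (log2 change 1.00, 95% interval 0.13 to 1.88, limma adjusted p = 0.104 blocked).

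**Figure D2:**
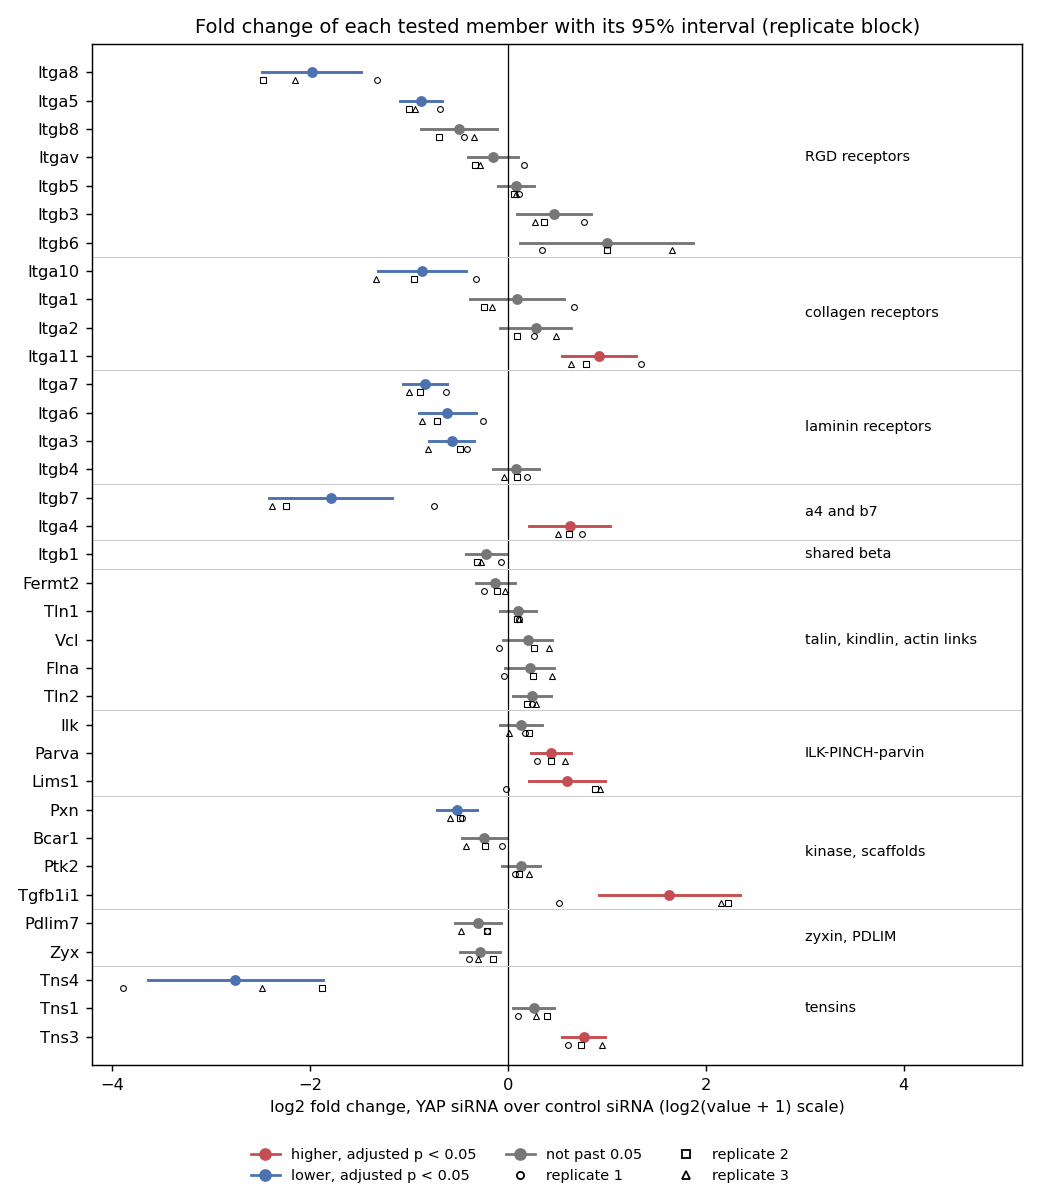
Log2 fold change of YAP siRNA over control siRNA for each of the 35 tested members, grouped by role, with its 95% interval from limma with the replicate block; red rose, blue fell, grey did not pass, and small open markers give the difference in each same-numbered pair. Itga3, Itga6 and Itga7, grouped as laminin receptors, lie left of 0 in every pair, and Tns4, Itga8, Itgb7 and Tgfb1i1 lie farthest from 0.

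The alpha chains grouped here as laminin receptors, Itga3, Itga6 and Itga7, fell. Itga7 had 5124, 7569 and 9055 normalized counts in the controls and 3327, 4104 and 4523 after YAP siRNA, with no overlap between groups. Its log2 change was −0.84 (95% interval −1.06 to −0.61, limma adjusted p = 0.00221 blocked and 0.258 unblocked). Itga6, the laminin receptor chain that can pair with Itgb1 or Itgb4, had 3866, 3714 and 3681 in the controls and 3255, 2261 and 2021 after YAP siRNA. Control libraries of Itga6 lay close together and all YAP siRNA libraries were below them, least so replicate 1. The log2 change was −0.61 (95% interval −0.90 to −0.32, limma adjusted p = 0.0150 blocked and 0.293 unblocked).

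Itga3, the most abundant alpha chain, had 19596, 35408 and 39414 normalized counts in the controls and 14695, 25378 and 22539 after YAP siRNA. It was lower in each pair, but control replicate 1 lay below YAP siRNA replicates 2 and 3, so the groups overlap. The log2 change was −0.57 (95% interval −0.79 to −0.34, limma adjusted p = 0.00838 blocked and 0.559 unblocked). Without replicate 2 of both groups, Itga3 and Itga6 did not pass (limma adjusted p = 0.0680 and 0.135 blocked), while Itga7 did. The laminin-specific beta chain Itgb4, partner of Itga6, had 718, 2580.2 and 2478 and 822, 2758 and 2411 normalized counts, with a log2 change of 0.084 (95% interval −0.15 to 0.31). Replicate 1 of Itgb4 was more than 2-fold below the others in both groups, and the values within each number were close.

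Collagen receptor chains went both ways. Itga11, a fibrillar collagen receptor of fibroblasts, had 71.3, 850.4 and 969 normalized counts in the controls and 183, 1471 and 1507 after YAP siRNA, a rise in every pair. The difference between numbers was far larger than that between siRNAs, so the groups overlap. Its log2 change was 0.92 (95% interval 0.55 to 1.30, limma adjusted p = 0.00908 blocked and 0.867 unblocked), and it did not pass without replicate 2 of both groups (limma adjusted p = 0.0723 blocked).

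Itga10, a collagen receptor known from cartilage, had 252, 939 and 1154 normalized counts in the controls and 202, 486 and 457 after YAP siRNA. It was lower in each pair, least in pair 1 (log2 change −0.87, 95% interval −1.31 to −0.42, limma adjusted p = 0.0204 blocked and 0.669 unblocked). The call was lost without either pair 2 or pair 3 (limma adjusted p = 0.149 and 0.0814 blocked). Its longest coding transcript shares 33.0% of its 31-mers with the annotated gene Gm42957, so its counts are uncertain. Itga1 and Itga2, the collagen receptors with the broadest expression, did not pass. Itga1 had 115, 486 and 432 normalized counts in the controls and 184, 412 and 386 after YAP siRNA (log2 change 0.09, 95% interval −0.38 to 0.56), and Itga2 158, 448 and 401 and 189.9, 478 and 564 (log2 change 0.28, 95% interval −0.076 to 0.64). The sign for Itga1 was negative in pairs 2 and 3 and positive in pair 1.

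Itgb7 and Itga4, which pair with each other in lymphocytes, went in opposite directions. Itgb7 had 2484, 2828 and 2727 normalized counts in the controls and 1479.8, 599 and 521 after YAP siRNA. All YAP siRNA libraries were lower than all controls, replicate 1 much less so than replicates 2 and 3. The log2 change was −1.79 (95% interval −2.41 to −1.17, limma adjusted p = 0.00543 blocked and 0.189 unblocked), and −2.31 without replicate 1 of both groups.

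Beside Itgb7, leukocyte markers were partly present. Of 12 markers 6 had a mean of at least 10. Cd68 lay between 101 and 164 normalized counts, Csf1r had a mean of 161 in the controls and 76.2 after YAP siRNA, and Itgb2, which pairs with other alpha chains, 167 and 95.5. Lyz2 went the other way, with means of 5.94 in the controls and 26.6 after YAP siRNA. So did Ptprc, which encodes CD45, with 13.3 and 16.3, and neither passed (limma adjusted p = 0.0873 and 0.343 blocked). Cd14 and Tyrobp were at 0 in every library, Itgam did not exceed 1.56 and Ptprc did not exceed 29.3 normalized counts. The summed list lay between 422 and 546 in the controls and between 326 and 389 after YAP siRNA, with 0 genes higher and 1 lower (Csf1r), and its part in the Itgb7 result was not tested. Itga4, whose receptors bind VCAM-1 and fibronectin, had 94.1, 191 and 219 normalized counts in the controls and 159, 295 and 310.4 after YAP siRNA, a rise in every pair with overlapping groups. Its log2 change was 0.62 (95% interval 0.21 to 1.03, limma adjusted p = 0.0463 blocked), and it lost the call in 6 of 12 alternative settings, DESeq2 among them. Itga4 shares 13.2% of its 31-mers with transcripts of other genes, Cerkl first among them.

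Itgb1, the partner of most alpha chains above, had 33305, 33992 and 32598 normalized counts in the controls and 31710.3, 27336 and 27093 after YAP siRNA. The groups do not overlap, but the difference was small (log2 change −0.22, 95% interval −0.42 to −0.017, limma adjusted p = 0.120 blocked). Without replicate 1 of both groups it was −0.29 (limma adjusted p = 7.7e-04). By chain, 6 of 11 tested alpha subunits fell and 2 rose (54.5% and 18.2%), and 1 of 7 beta subunits fell and 0 rose (14.3% and 0%). Over all genes tested the shares were 8.96% lower and 8.32% higher. Whether the chains differ was not tested. Itga9 was too low to test, at 0, 0.780 and 0 and 2.40, 3.03 and 18.1 normalized counts.

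Of the 5 genes for talins, kindlin-2, vinculin and filamin A, 0 passed. Tln1, the main talin, had 17121, 22324 and 22241 normalized counts in the controls and 18579, 23736 and 24097 after YAP siRNA (log2 change 0.11, 95% interval −0.074 to 0.29). Its paralogue Tln2 was higher in all 3 pairs, at 3112, 4505 and 4040.5 and 3681, 5159 and 4932 (log2 change 0.24, limma adjusted p = 0.0835 blocked). Fermt2, which encodes kindlin-2, had 6929, 5708 and 5089 and 5869, 5289 and 4996 (log2 change −0.13, 95% interval −0.32 to 0.073).

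Vcl, which encodes vinculin, had 14789, 15808 and 15368 normalized counts in the controls and 13929, 19001 and 20549.6 after YAP siRNA, lower in pair 1 and higher in the others (log2 change 0.20, limma adjusted p = 0.226 blocked). Flna, the actin crosslinker filamin A and the most abundant member by count, showed the same order of pairs, at 84608, 74926 and 66140.1 and 82193, 89484 and 90181 (log2 change 0.22, limma adjusted p = 0.191 blocked). Without replicate 1 of both groups both passed as higher, at 0.34 and 0.35 (limma adjusted p = 7.4e-05 and 4.2e-05 blocked). Of the 31-mers of the Vcl transcript, 39.4% also occur in transcripts annotated to Ap3m1.

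In the complex of ILK, PINCH and parvin, which binds the integrin beta tail and actin, the PINCH and parvin genes rose. Parva, which encodes alpha-parvin, had 7159, 6577 and 5635 normalized counts in the controls and 8761, 8907 and 8441 after YAP siRNA, without overlap. Its log2 change was 0.44 (95% interval 0.23 to 0.64, limma adjusted p = 0.0152 blocked and 0.275 unblocked).

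Lims1, the PINCH gene, had 7959, 5831 and 5759 in the controls and 7857, 10710.3 and 10982 after YAP siRNA. Pairs 2 and 3 were higher and pair 1 differed little, with differences of −0.019, 0.88 and 0.93, so that its log2 change of 0.60 (95% interval 0.21 to 0.98, limma adjusted p = 0.0442 blocked) became 0.90 without replicate 1. Both Parva and Lims1 lost the call without replicate 2 or without replicate 3 of both groups (highest limma adjusted p 0.156 and 0.284 blocked). Ilk itself, the pseudokinase at the centre of the complex, had 3659, 1798 and 2273 and 4140.1, 2092 and 2289 (log2 change 0.14, 95% interval −0.079 to 0.35). Transcripts of other genes, chiefly Taf10, hold 86.6% of the 31-mers of Ilk, so its counts are the least certain of the members.

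**Figure D3:**
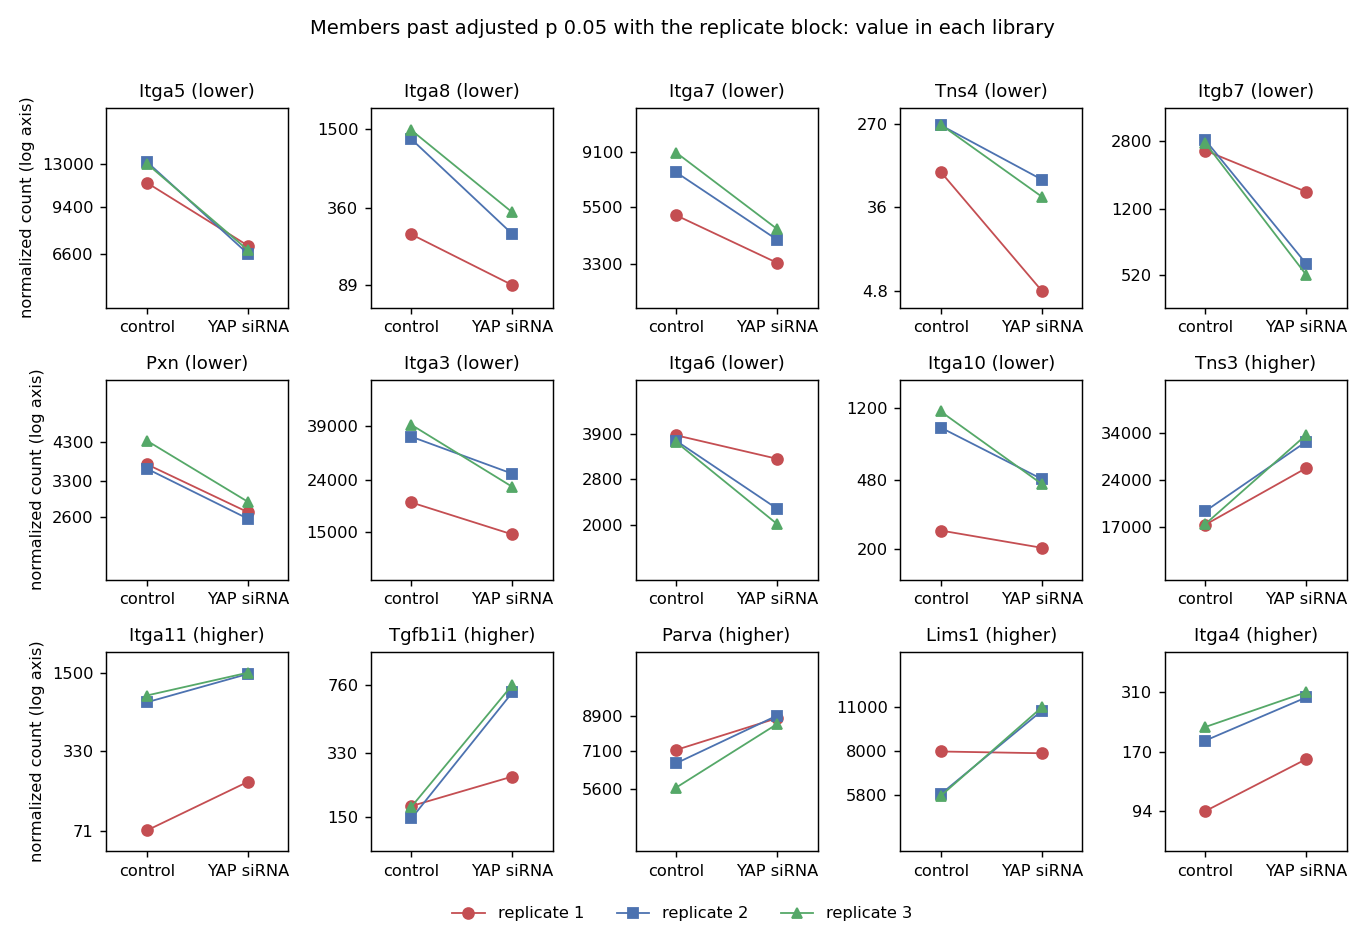
Normalized count (log axis, scaled per panel) in each library for the 9 members that fell and the 6 that rose, with lines joining libraries of the same replicate number. Itga5, Itga7, Itgb7 and Pxn fall without overlap between groups, and replicate 1 lies apart for Itga8, Itga10, Itga11, Itga3 and Itga4.

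Of the adhesion scaffolds, Pxn fell and Tgfb1i1 rose. Pxn, the gene for paxillin, which recruits kinases and their targets to adhesions, had 3699.5, 3593 and 4329.8 normalized counts in the controls and 2688, 2573 and 2881 after YAP siRNA. The groups do not overlap and the pairs gave similar differences of −0.46, −0.48 and −0.59 (log2 change −0.51, 95% interval −0.71 to −0.31, limma adjusted p = 0.00813 blocked and 0.226 unblocked). Tgfb1i1 encodes Hic-5, a paxillin relative induced by TGF-beta, and had 171, 147 and 170.0 normalized counts in the controls and 246, 692 and 759.5 after YAP siRNA.

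The controls of Tgfb1i1 were even, and after YAP siRNA replicates 2 and 3 were far higher than replicate 1. The log2 change was 1.63 (95% interval 0.92 to 2.34, limma adjusted p = 0.0113 blocked and 0.248 unblocked), and the mean was 3.47 times the control mean. Pxn and Tgfb1i1 both lost the call without replicate 2 of both groups (limma adjusted p = 0.0999 and 0.0850 blocked). Per kb, the Pxn mean was 813 ± 83.6 without and 569.6 ± 32.7 with YAP siRNA, and the Tgfb1i1 mean 32.1 and 112 (SD, n = 3), so paxillin transcript remained the more abundant in every library.

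Ptk2, which encodes focal adhesion kinase, had 6888, 7065 and 6292 normalized counts in the controls and 7258, 7634 and 7295 after YAP siRNA. All 3 values after YAP siRNA were above the controls, but by little (log2 change 0.13, 95% interval −0.056 to 0.32, limma adjusted p = 0.292 blocked). Bcar1, the gene for p130Cas, a scaffold that the kinase acts on, had 3402, 3968 and 4531 and 3276, 3385 and 3369.7, all below the controls (log2 change −0.24, limma adjusted p = 0.131 blocked). Zyx, which encodes zyxin, a force-sensitive LIM protein, and Pdlim7, another actin-bound LIM protein gene, were lower in every pair with overlapping groups. Zyx had 4584, 6182 and 7202 in the controls and 3498, 5584 and 5837 after YAP siRNA (log2 change −0.28, limma adjusted p = 0.0633 blocked), and Pdlim7 1525, 2109 and 2632 and 1318, 1819.5 and 1893 (log2 change −0.30, limma adjusted p = 0.0791 blocked).

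The tensins, adaptors between integrin tails and actin, split by gene. Tns3 rose from 17313, 19137 and 17394 normalized counts in the controls to 26318, 31995 and 33661 after YAP siRNA. Every YAP siRNA library was above every control library (log2 change 0.77, 95% interval 0.55 to 0.98, limma adjusted p = 0.00237 blocked and 0.165 unblocked). Tns4, a short tensin without the actin-binding part, fell from 85.0, 263 and 266 to 4.81, 70.6 and 46.7.

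Tns4 had a larger fold change in size than the other tested members when all libraries were kept (log2 change −2.75, 95% interval −3.63 to −1.87, limma adjusted p = 0.00412 blocked and 0.348 unblocked). Its lowest library, YAP siRNA replicate 1, rests on few reads, and without replicate 1 of both groups the log2 change was −2.18, smaller in size than those of Itga8 (−2.31), Itgb7 (−2.31) and Tgfb1i1 (2.19). Tns1 was higher in each pair, at 4228, 8158 and 8832 and 4543, 10753 and 10743, and did not pass (log2 change 0.26, limma adjusted p = 0.0805 blocked). Tns3 stood at 2399 ± 138 per kb without and 4097 ± 514 with YAP siRNA, and Tns4 at 43.0 ± 21.8 and 8.56 ± 7.01 (SD, n = 3), so the tensin that rose was the most abundant of the 3 and the one that fell the scarcest.

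Many integrin subunits were far lower in replicate 1 of both groups than in the other libraries. Of 35 tested members 10 were more than 2-fold below replicates 2 and 3 in replicate 1 of both groups (28.6%), and 0 were more than 2-fold above. Over all genes tested these shares were 7.07% and 6.66%. The 10 were Itga11, Itgb3, Itga8, Itga10, Itgb4, Itga1, Itga2, Itgb8, Tns4 and Tns1, of which 8 are integrin subunits. For Itga11 the mean of replicates 2 and 3 was 12.8 times replicate 1 in the controls and 8.15 times after YAP siRNA, and for Itgb3 6.55 and 4.78 times. Of the 5 most abundant subunits, Itga3 and Itgb5 in replicate 1 of the controls stood at 52.4% and 51.2% of replicates 2 and 3, Itgav at 70.7%, Itga5 at 86.0% and Itgb1 at 100.0%. Ilk was higher in replicate 1 of both groups, by less than 2-fold.

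**Figure D4:**
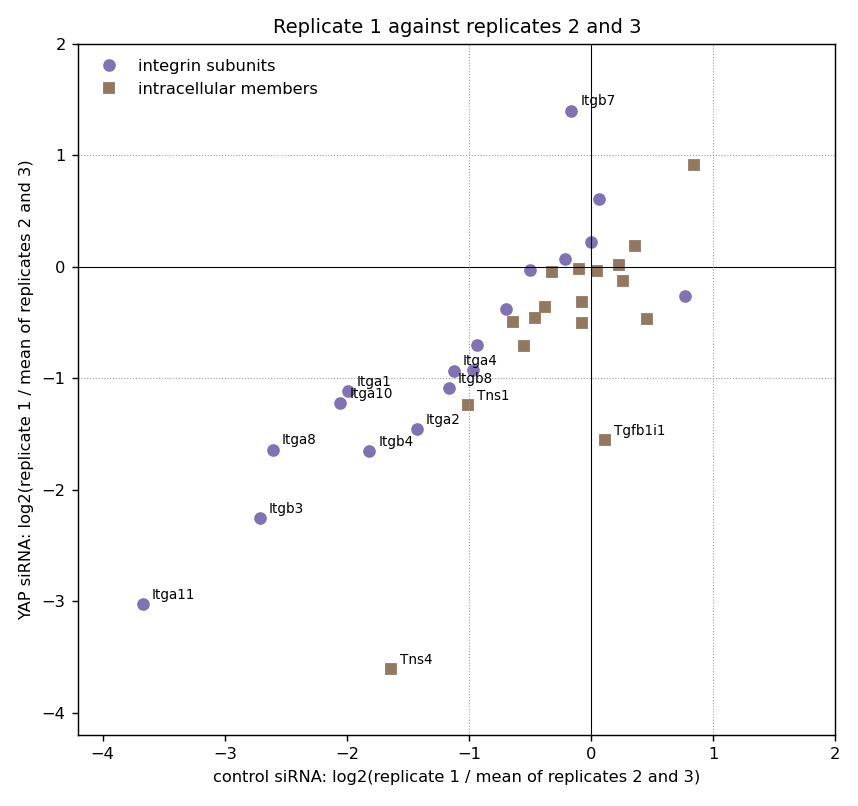
Log2 ratio of replicate 1 to the mean of replicates 2 and 3 in the control siRNA group (horizontal) and in the YAP siRNA group (vertical), 1 point per tested member; dotted lines mark 2-fold. Itga11, Itgb3, Itga8 and 7 further members lie below 2-fold in both groups, and Tgfb1i1 and Itgb7 differ between numbers mainly after YAP siRNA.

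The difference between siRNAs was also smallest in pair 1 for 12 of the 15 changed members (80.0%), the exceptions being Itga11, Itga4 and Tns4. Among all called genes that share was 77.2%. Yap1 was likewise lowered least in pair 1, with log2 differences of −2.34, −3.32 and −3.32 in pairs 1, 2 and 3; the part of this in the members' values was not tested. Without replicate 1 of both groups, 11 members rose and 15 fell with the block, against 21.9% higher and 21.8% lower over all genes tested. All 15 genes called with all libraries were among them in the same direction. The 11 added were Flna, Itgb6, Tln2, Tns1 and Vcl as higher, and Bcar1, Itgav, Itgb1, Itgb8, Pdlim7 and Zyx as lower. With 4 libraries that fit rests largely on variances borrowed across genes.

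In 5 members every YAP siRNA library was above every control library (Itgb6, Parva, Ptk2, Tgfb1i1 and Tns3), and in 8 every one was below (Itga5, Itga6, Itga7, Itgb1, Itgb7, Bcar1, Pxn and Tns4). Over all genes tested 9.47% and 9.49% did so. With 3 against 3 libraries an exact two-sided permutation test of 1 gene cannot go below p = 0.1.

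Around the members, 135 tested genes of 5 lists (matrix ligands, other integrins, other linkers and LIM proteins, adhesion signalling, and integrin traffic and its regulators) held 15 that rose and 29 that fell with the block (11.1% and 21.5%, against 8.32% and 8.96% of all genes), and 0 and 0 without it. Without replicate 2 of both groups, 1 and 4 of them passed in the blocked fit, against 0.959% and 1.38% of all genes tested. Without replicate 1 of both groups 37 and 45 passed, against 21.9% and 21.8% of all genes tested. The lists too were chosen with earlier results of these data known, so their shares are no neutral comparison. Matrix ligands held 5 higher and 14 lower of 34 tested (14.7% and 41.2%), with a median log2 change of −0.27. Spp1, which encodes osteopontin, a ligand of several RGD receptors, went from 28139.5, 120626 and 124915 normalized counts in the controls to 9416, 25599 and 22091 (log2 change −2.10, limma adjusted p = 7.3e-04 blocked). The collagen gene Col6a3 fell by 0.60 and Ltbp1, a carrier of latent TGF-beta, by 0.94 on the log2 scale, while the matricellular gene Thbs2 rose by 0.57, the Itga4 ligand Vcam1 by 0.77 and Fbln5, an elastic fibre gene, by 1.04.

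Npnt, named after its values were seen because its product nephronectin is the known ligand of the Itga8 receptor, went from 1217, 5985 and 6311 to 1061, 1032 and 1171 normalized counts (log2 change −1.72, limma adjusted p = 0.0192 blocked). Control replicate 1 was close to the YAP siRNA libraries of Npnt, and the other controls were far above them. The fibronectin gene Fn1, ligand of the Itga5 receptor and also outside the naming rule, fell by 0.35 on the log2 scale (limma adjusted p = 0.0295 blocked).

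Other integrins were mostly low, with 3 of 9 tested and 0 called. Itgb2, the leukocyte beta chain, had 137, 186 and 179 in the controls and 133, 80.7 and 72.3 after YAP siRNA (limma adjusted p = 0.0767 blocked). Among other linkers and LIM proteins 4 rose and 4 fell of 36 tested (11.1% each, near the share over all genes), with a median of −0.006. Tes, which encodes testin, a zyxin partner, went from 8798, 6864 and 7282 to 4195, 3375 and 3049 normalized counts (log2 change −1.12, limma adjusted p = 9.5e-04 blocked). Ajuba, a LIM protein gene that also acts in Hippo signalling, fell by 0.59 and Tenc1, the gene of tensin-2, by 0.45 on the log2 scale. Rsu1, whose product binds PINCH, rose by 0.55, the intermediate filament gene Synm by 0.59 and the liprin gene Ppfibp1 by 0.36.

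In adhesion signalling 4 rose and 6 fell of 39 tested (10.3% and 15.4%), with a median of 0.085. Ptk2b, which encodes PYK2, the relative of focal adhesion kinase, went from 1947, 3088 and 2700.1 to 1359.6, 1391 and 1433 normalized counts without overlap (log2 change −0.86, limma adjusted p = 0.00529 blocked). The Src-family kinase gene Yes1 rose by 0.71, the Rac activator gene Dock1 by 0.61 and the talin-recruiting GTPase gene Rap1b by 0.58, while the myosin gene Myh9 and the adaptor gene Git1 fell by 0.40 and 0.42 on the log2 scale. Among traffic and regulators of integrins 2 rose and 5 fell of 23 tested (8.70% and 21.7%), with a median of 0.074. The syndecan gene Sdc4, a fibronectin co-receptor, rose by 0.54 and Krit1 by 0.37. The urokinase receptor gene Plaur fell by 0.93, the recycling factor gene Acap1 by 1.17 and the syndecan gene Sdc1 by 0.54 on the log2 scale.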

How the data were processed

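RNA of SC4 cells was sequenced in 6 libraries, 3 per group. The authors deposited a signal unit, normalized counts per gene, made by dividing the reads of each library by its own size factor. TopHat2 2.0.9 and HTSeq 0.6.1, besides DESeq 1.14.0 and build mm9, are named per the submitters' processing notes. The annotation used for counting is not given in the sources used here, nor is the strand setting. In each library 100% of values were whole multiples of 1 read (tolerance 0.01 reads), so reads were recovered for edgeR 4.0.16 and DESeq2 1.42.0.

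R 4.3.3 and limma 3.58.1 were used on log2(value + 1) with a mean-variance trend, two-sided, and with Benjamini-Hochberg adjustment over genes whose mean reached 10. The main design had no block, and the other had the replicate number as a block. Deviations from group means correlated at 0.788, 0.705 and 0.532 in same-numbered libraries, all over 0.1, the criterion for pairing. But YAP siRNA replicate 3 correlated at 0.552 with control replicate 2, and YAP siRNA replicate 2 at 0.516 with control replicate 3. Replicates 2 and 3 thus met the criterion with either number. The check sets replicate 1 apart in both groups but cannot tell how replicates 2 and 3 pair. The pairing comes from this check, since no label names a shared batch. Members and lists were chosen with earlier results of these data known. Every member is given with values; list genes were named as up to 3 with the smallest p per direction. Exon lengths and 31-mers (either strand, longest coding transcript) came from GENCODE M21, another build than that of the counts.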

Additional observations from a re-analysis of the deposited data

How the results depend on the processing

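Without the block, members called higher and lower were 0 and 0, and they were 6 and 9 with the replicate block, 2 and 5 with DESeq2, and 10 and 13 without replicate 1 of both groups. Leaving out 1 library or pair gave 0 to 10 higher and 0 to 13 lower: 2 passed as lower (Itga5 and Itga7) without control replicate 1 and 1 (Itgb7) without YAP siRNA replicate 1. For the pathway lists together, 0 and 0 became 15 and 29 with the block, 2 and 8 with DESeq2, and 0 to 30 and 0 to 39 with a library or pair left out (30 and 39 without replicate 1, and 6 lower without control replicate 1). With the block, 6 and 9 members became 0 and 0 in limma without a trend, and 1 to 11 higher and 5 to 15 lower with a pair left out; the lists' 15 and 29 became 0 and 0, and 1 to 37 and 4 to 45. The cause was not tested. For unblocked fits with a library or pair left out, and for limma without a trend, shares over all genes are not given here. Those counts are therefore no result about the members or lists. With the block, all 15 called members kept the call in edgeR, 14 in DESeq2, 15 without replicate 1, 6 without replicate 2 and 11 without replicate 3. The block changed no member's fold change. Scalings moved the median of all genes by at most 0.0273 (log2). Without the block, 9 members that were not called in it took the opposite sign in some alternatives. Itga1 became −0.079 with edgeR, −0.078 with DESeq2 and −0.20 without replicate 1 of both groups. With single libraries or pairs left out, the log2 changes ran from −0.57 to 0.46 for Itga1, −0.43 to 1.22 for Itgb3, −0.24 to 0.40 for Itgb5, −0.19 to 0.76 for Itga2, −0.29 to 1.93 for Itga11, −0.52 to 0.63 for Itgb4, −0.019 to 0.23 for Tln1, −0.17 to 0.42 for Ilk and −0.074 to 0.68 for Tns1.

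Of the tested members, Itgb6, Tns4 and Itga4 had the lowest mean counts, where 1 read weighs most; all intervals cover the spread between these libraries only. A fit with a pair left out rests on 4 libraries.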
